A study of Mus musculus with 44 samples.

Results

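The subject is the second day of RANKL treatment in mouse small intestinal organoids, set against the first day. Its members are 6 of the 44 plates of the series, the 3 plates labelled day 2 of RANKL and the 3 labelled day 1, chosen by those labels. RNA of single cells was counted with a modified CEL-Seq2 protocol, in which each captured transcript end carries a unique molecular identifier (UMI). All plates came from 1 organoid line, labelled line26 wild type, Lgr5GFPDTR/+, from a female mouse with GFP and the diphtheria toxin receptor inserted in 1 Lgr5 allele. Both groups had the same treatment before the cytokine, 3 days in 3 µM CHIR99021, a GSK3 inhibitor, with 1.5 mM valproic acid, a histone deacetylase inhibitor, and then 1 day in ENR medium, which holds EGF, Noggin and R-spondin. The day 2 group had then received 100 ng/mL recombinant mouse RANKL for 2 days and the day 1 group for 1 day, with medium refreshed every 3 days. Whether the plates of a day are separate cultures is not labelled, and p-values therefore reflect only how much plates vary, possibly for technical reasons. No untreated plates of these days were analysed here, so RANKL and time in culture cannot be told apart.

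RANKL is a cytokine of the TNF family. In the gut it is made by stromal cells beneath lymphoid follicles and binds RANK on epithelial cells, which signals through TRAF adaptors to the canonical and noncanonical NF-kappaB pathways. There it directs crypt-derived cells to become M cells, the epithelial cells that carry luminal antigen to the lymphoid tissue, with the transcription factors Spib and later Sox8 as known steps and Gp2 as a surface receptor of mature M cells.

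Of the wells on the 6 plates, 1435 held 1000 or more UMIs and were kept. The day 2 plates held 228, 232 and 238 cells with 1258499, 1502073 and 1443395 UMIs, and the day 1 plates held 252, 240 and 245 cells with 1640523, 1359403 and 1370518 UMIs. The median per cell was 5436 to 6508 UMIs on day 2 plates and 5499 to 6517 on day 1 plates. Plates carry the same set of well barcodes by design, with 366 of the 381 barcodes found on more than 1 plate, so a shared barcode does not mean a shared cell. The chi-square per gene between plates was 7.10 to 19.1 for pairs of day 2 plates and 3.68 to 4.42 for pairs of day 1 plates, all above the value of about 1 that counting noise alone would give. A single unnamed gene model, CT010467.1, took 18.02%, 4.32% and 9.52% of UMIs on the day 2 plates and 9.33%, 11.7% and 7.28% on the day 1 plates. The chi-square values include this gene model, whose share differed most between plates 1 and 2 of day 2, the pair at 19.1. They were not computed without it, so no wider spread of most genes on day 2 is read from them. All 9 epithelial markers were counted, at a summed 4416 to 4684 CPM (UMI counts relative to the TMM-scaled library size) on day 2 and 4147 to 4412 CPM on day 1. Markers of fibroblasts summed to 4.46 to 6.98 CPM on day 2 and 4.55 to 10.7 CPM on day 1, with Dcn at 0. Markers of immune cells summed to 3.49 to 6.25 CPM on day 2 and 3.56 to 6.07 CPM on day 1, with Lyz2 at 0.

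On the second day of RANKL the organoid cells held more Anxa5, Ccl9, Ttr and Slc26a2 mRNA than on the first, and less mRNA of the stem cell genes Olfm4 and Lgr5, of Cps1 and Mt2, and of several replication and immediate early genes. Of 10000 genes tested with edgeR's quasi-likelihood test, 149 passed a Benjamini-Hochberg adjusted p of 0.05 (1.49%), with 90 higher on day 2 (0.9%) and 59 lower (0.59%). The median log2 fold change over all tested genes was 0.01, and 1238 genes had an unadjusted p under 0.05. Plates of the 2 days did not overlap for 145 of the 149 genes. Over all tested genes, the 3 day 2 plates lay wholly above the day 1 plates for 954 (9.54%) and wholly below for 945 (9.45%). The number of calls fell to 66 without plate 2 of day 2, 71 without plate 3 of day 2, 67 without plate 2 of day 1 and 81 without plate 3 of day 1. All 149 kept their sign whichever plate was left out, and 43 of them (29 rises and 14 falls) also passed the test each time. The step was small beside its neighbours in time, which share plates with it: 2376 genes passed between day 0 and day 1 and 449 between day 2 and day 3.

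**Figure D1:**
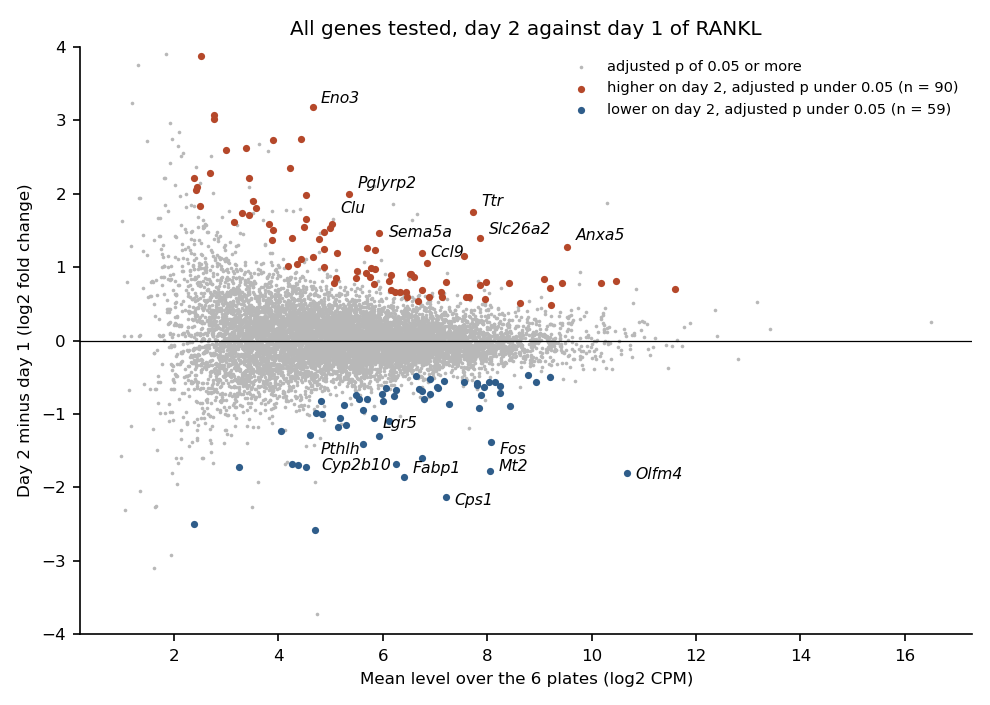
Each point is a gene, with its mean level over the 6 plates in log2 CPM on the horizontal axis and its log2 fold change, day 2 minus day 1, on the vertical axis. The 90 genes higher on day 2 and the 59 lower ones are coloured, and 6 genes lie outside the vertical range. Eno3 stands highest of the named rises and Olfm4 is the most abundant of the named falls.

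Of the early M cell genes, Anxa5, Ccl9 and Clec2h rose on the second day, and Spib did not pass the test. Anxa5 (chromosome 3, 36448923 to 36475894, GENCODE M21 on GRCm38), a calcium-dependent phosphatidylserine-binding protein found in M cells, had 1089, 1214 and 1146 CPM on the day 2 plates against 450.0, 450.0 and 519 CPM on the day 1 plates. All day 2 plates lay above all day 1 plates, with a log2 fold change of 1.28 ± 0.13 (SE; edgeR adjusted p = 6.52e-08). Ccl9, a chemokine that follicle-associated epithelium makes, had 119, 179 and 190 CPM on day 2 against 91.0, 62.2 and 59.8 CPM on day 1. It was also higher on every day 2 plate (1.19 ± 0.23, edgeR adjusted p = 0.00287). Clec2h, a C-type lectin-like gene of gut epithelium, had 353, 348 and 297 CPM on day 2 against 225, 194 and 151 CPM on day 1 (0.80 ± 0.20, edgeR adjusted p = 0.03). This call was lost without any 1 of the 3 day 2 plates (adjusted p of 0.0505 to 0.109), without plate 2 of day 1 (0.107), without plate 3 of day 1 (0.208) and without TMM scaling (0.0597). Spib (chromosome 7, 44525993 to 44532071), the Ets-family factor that M cells need, had 178, 223 and 147 CPM on day 2 against 329, 207 and 234 CPM on day 1. The days overlapped, and the log2 fold change of -0.50 ± 0.20 did not pass (edgeR adjusted p = 0.27). Of all tested genes, 0.9% rose and 0.59% fell, and 9.54% lay wholly higher and 9.45% wholly lower on day 2. Of the 12 tested genes of the M cell list 3 rose and none fell. The list had a median log2 fold change of 0.10, with 5 genes wholly higher on day 2 and 1 wholly lower. Among the others, Rac2, a GTPase of phagocytic cells, had a log2 fold change of 0.81 (edgeR adjusted p = 0.149), the protease gene Ctsh one of 0.45 (0.0608) and the protease inhibitor gene Serpinb1a one of 0.08 (0.908). Sox8 and Gp2 had too few counts to be tested, with Gp2 counted in 1 cell of the 3 day 2 plates and in 1 cell of the 3 day 1 plates.

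**Figure D2:**
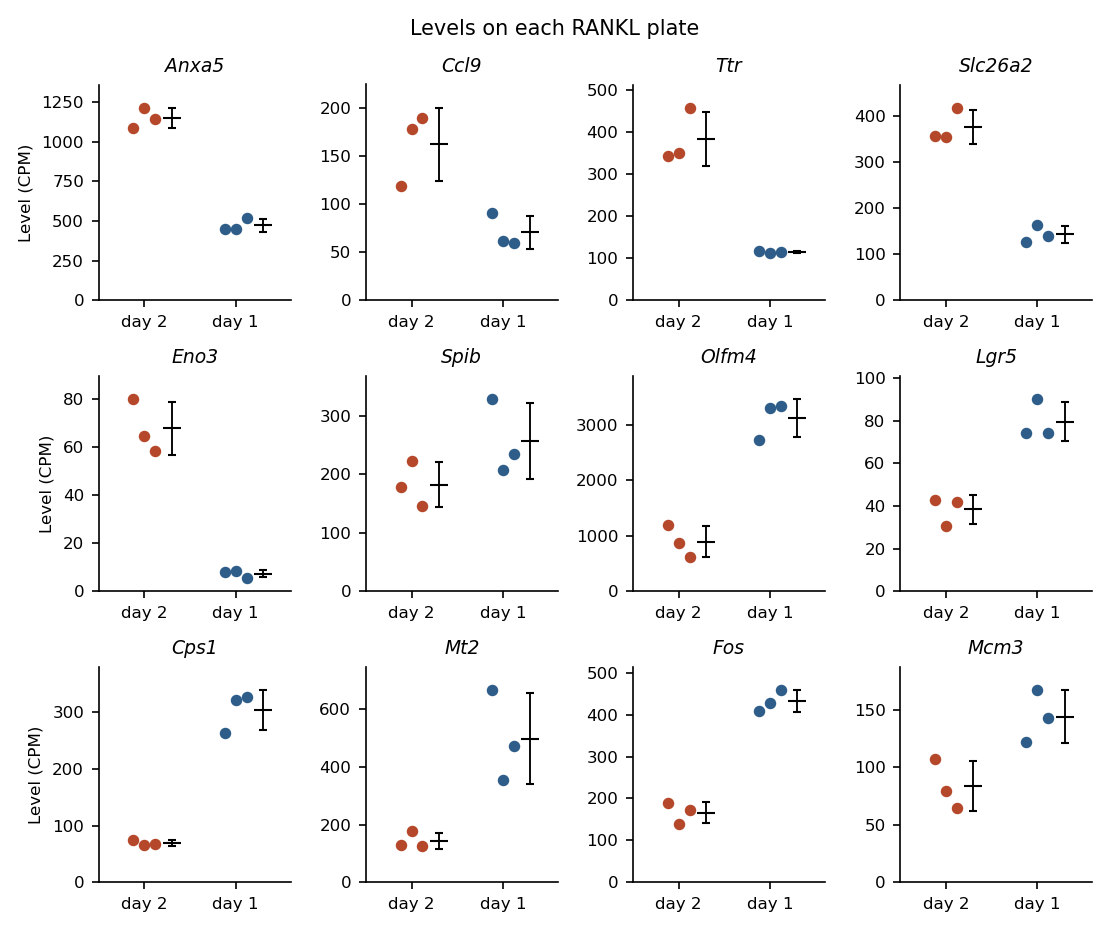
Levels in CPM on each of the 3 plates of day 2 (left) and of day 1 (right) for 12 genes, with the mean and SD beside the points. All axes start at 0. The plates overlap for Spib alone among these genes, and Anxa5 lies between 1089 and 1214 CPM on day 2 against 450.0 to 519 CPM on day 1.

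Of the receptor and its NF-kappaB branches 1 gene passed the test. Tnfrsf11a, the gene of RANK, had 230, 242 and 204 CPM on day 2 against 249, 269 and 246 CPM on day 1 (log2 fold change -0.18 ± 0.13, edgeR adjusted p = 0.633). Of 10 tested genes of RANK and noncanonical NF-kappaB signalling 1 fell and none rose (median -0.15), where 0.59% of all tested genes fell and 0.9% rose. The gene that fell was Birc3, a ubiquitin ligase that is itself an NF-kappaB target, at 45.5, 48.0 and 46.1 CPM on day 2 against 71.2, 86.5 and 90.5 CPM on day 1. All day 2 plates were lower (-0.82 ± 0.21, edgeR adjusted p = 0.0337), but the call was lost without any 1 of the day 2 plates (0.0882 to 0.124), without plate 2 (0.125) or plate 3 (0.17) of day 1 and without TMM scaling (0.0588). Of 25 tested canonical NF-kappaB response genes Birc3 was also the only call, with a median of 0.03. Ccl20, the chemokine that draws lymphocytes and dendritic cells to follicles, had 1474, 1205 and 1207 CPM on day 2 against 1305, 924 and 933 CPM on day 1 (0.30 ± 0.23, adjusted p = 0.667). The days overlapped. None of 23 tested interferon response genes passed (median -0.16). Of 14 tested class I antigen presentation genes, 1 rose: H2-M2, a nonclassical class I gene, which had 192, 143 and 159 CPM on day 2 against 88.5, 83.5 and 64.1 CPM on day 1. The plates did not overlap (1.06 ± 0.19, edgeR adjusted p = 0.00157), and the median of the list was -0.31. Onecut2, a homeobox factor of the intestine, had 900.5, 1050.5 and 1031 CPM on day 2 against 698, 721 and 769 CPM on day 1. It was higher on every day 2 plate without passing the test (0.45 ± 0.14, adjusted p = 0.112).

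Other rises included secreted, adhesion and transport genes. Ttr, the carrier of thyroxine and of retinol-binding protein, had 343, 350 and 458 CPM on day 2 against 117, 112 and 114 CPM on day 1 (1.75 ± 0.16, edgeR adjusted p = 3.4e-09). Slc26a2, a sulfate transporter, had 356, 354 and 418 CPM on day 2 against 128, 163 and 140 CPM on day 1 (1.39 ± 0.16, adjusted p = 5.9e-07). For both, all day 2 plates lay above the highest day 1 plate. Itga1, the alpha subunit of a collagen-binding integrin, had 300, 253 and 284 CPM on day 2 against 118, 120 and 138 CPM on day 1 (1.15 ± 0.13, adjusted p = 5.88e-07). Sema5a, a guidance protein of the semaphorin family, had 109, 77.9 and 108 CPM on day 2 against 39.0, 30.4 and 36.3 CPM on day 1 (1.47 ± 0.18, adjusted p = 1.12e-06). Neither overlapped between the days. Pglyrp2, an amidase that cleaves bacterial peptidoglycan, was 75.0, 90.9 and 67.1 CPM on day 2 against 16.7, 17.5 and 24.2 CPM on day 1 (2.00 ± 0.36, edgeR adjusted p = 0.00121), a call lost with DESeq2 (0.121). Mfge8, which bridges phosphatidylserine to integrins, was 89.2, 69.5 and 74.7 CPM on day 2 against 37.8, 29.6 and 28.5 CPM on day 1 (1.27 ± 0.26, adjusted p = 0.00403). Tmsb4x, which binds actin monomers, was the most abundant of the named rises, at 3788, 4349 and 3724 CPM on day 2 against 2254, 2357 and 2659 CPM on day 1 (0.71 ± 0.13, adjusted p = 0.00223). Of 23 tested annexin and actin regulator genes 3 rose (Anxa5, Anxa13 and Tmsb4x) and 1 fell (Lcp1), with a median of 0.08. Among all tested genes, 0.9% rose and 0.59% fell. Anxa13 (0.79, adjusted p = 0.00643) lost its call without plate 2 of day 1 (0.0656), and Lcp1 (-1.01, 0.0195) without plate 2 (0.0998) or 3 (0.102) of day 2 or plate 1 (0.132) or 2 (0.0679) of day 1. Mycn, a Myc-family factor, was 33.0, 31.8 and 43.3 CPM on day 2 against 9.90, 8.35 and 18.5 CPM on day 1 (1.55 ± 0.30, adjusted p = 0.00287), and it was the only one of 24 tested Myc and growth genes that passed. Eno3, an enolase best known from muscle, was too low to be named by the rule and was chosen after its values were seen. It had 80.3, 64.9 and 58.7 CPM on day 2 against 8.05, 8.35 and 5.70 CPM on day 1 (3.18 ± 0.26, edgeR adjusted p = 2.04e-10). Its plates did not overlap.

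Several crypt stem cell transcripts fell. Olfm4 (chromosome 14, 79984081 to 80023139), a secreted glycoprotein of crypt base columnar cells, had 1188, 880 and 627 CPM on day 2 against 2730, 3304 and 3348 CPM on day 1. All day 2 plates were under the lowest day 1 plate (-1.80 ± 0.18, edgeR adjusted p = 2.54e-08). Lgr5, the R-spondin receptor that marks these cells, had 42.8, 30.5 and 41.9 CPM on day 2 against 74.3, 90.3 and 74.1 CPM on day 1 (-1.06 ± 0.16, adjusted p = 0.000113). The plates did not overlap. One Lgr5 allele carries the knock-in in this line, and whether reads of that allele were counted was not tested. Rgcc, a cell cycle regulator of crypt cells, had 9.82, 9.09 and 9.78 CPM on day 2 against 28.5, 40.2 and 24.2 CPM on day 1 (-1.68 ± 0.33, adjusted p = 0.00287). Aqp4, a water channel of the crypt, had 191, 164 and 190 CPM on day 2 against 258, 310 and 259 CPM on day 1 (-0.60 ± 0.15, edgeR adjusted p = 0.0271). The call of Aqp4 was lost without any 1 of the day 2 plates (0.055 to 0.196), without plate 2 of day 1 (0.22) and without plate 3 of day 1 (0.0677). Over all tested genes, 0.59% fell, 9.45% lay wholly lower and 9.54% wholly higher. Of 18 tested crypt stem cell genes these 4 fell and none rose, the median was -0.34, and 9 lay wholly lower on day 2 against 1 wholly higher. Among those that did not pass were the matricellular gene Smoc2 (-0.46, edgeR adjusted p = 0.052) and Ascl2, a Wnt-driven factor of stem cell fate (-0.15, 0.804). Of 13 tested Wnt target genes Lgr5 was the only call, and Axin2, the standard reporter of the pathway, had a log2 fold change of -0.04 (edgeR adjusted p = 0.956). In these sums over cells, fewer cells of a type and less RNA per cell cannot be told apart.

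Several DNA replication genes fell, and no listed gene of mitosis passed the test. Of 40 tested genes of DNA replication and S phase 6 fell (15%) and none rose, with a median log2 fold change of -0.50 and 21 genes wholly lower on day 2. Over all tested genes, 0.59% fell and 9.45% lay wholly lower. Rfc4, a subunit of the clamp loader, had 27.7, 18.8 and 30.04 CPM on day 2 against 48.3, 63.0 and 57.7 CPM on day 1 (-1.15 ± 0.23, edgeR adjusted p = 0.00359). Mcm3, a subunit of the replicative helicase, had 107, 79.2 and 65.0 CPM on day 2 against 122, 168 and 143 CPM on day 1 (-0.79 ± 0.17, adjusted p = 0.00649). Mcm5, of the same helicase, had 91.0, 82.5 and 69.8 CPM on day 2 against 123, 137 and 125 CPM on day 1 (-0.67 ± 0.14, adjusted p = 0.00491). Plates of these genes did not overlap. The other calls were Rpa2 (-0.74), Mcm4 (-0.64) and Hells (-0.63). Leaving out 1 plate ended calls for each of the 6: Rfc4 without plate 2 of day 2 (0.0727), Mcm5 without plate 3 of day 2 (0.0709) and Mcm3 without plate 2 (0.0568) or 3 (0.0954) of day 2 or plate 2 of day 1 (0.0842). Mcm4 and Hells lost theirs without plate 2 or 3 of either day (0.175 to 0.223 and 0.223 to 0.282), and Rpa2 without any plate but plate 3 of day 2 (0.0526 to 0.172). Of 51 tested genes of the mitosis list none passed, with a median of -0.24 and 12 genes wholly lower, against 9.45% of all tested genes. The list does not hold every such gene. Haus4, Ncapg2, Stil and Fbxo5, which also act in cell division, lie outside it and passed the test as falls. With 1 plate left out their log2 fold changes were -0.98 to -0.75, -0.96 to -0.61, -1.18 to -0.79 and -0.91 to -0.66. Each lost its call when plate 2 or plate 3 of day 2 was left out. Mki67, a proliferation marker, had 288, 178 and 291 CPM on day 2 against 316, 359 and 340 CPM on day 1 (-0.42 ± 0.23, adjusted p = 0.463). Of 10 tested replication-dependent histone genes 1 fell, H2ac8, at 88.4, 53.9 and 46.8 CPM on day 2 against 144, 193 and 228 CPM on day 1 (-1.60 ± 0.37, edgeR adjusted p = 0.0172). Histone genes have near-identical copies, so its counts are uncertain, and its call was lost without plate 2 or 3 of either day (0.0693 to 0.129) and with DESeq2 (0.079).

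The helicase genes Mcm3 and Mcm5 are known targets of E2F factors, and their promoters are shown for that reason. The 8-letter forms TTTCCCGC, TTTGGCGC, TTTCGCGC and TTTGCCGC were searched on both strands in RefSeq promoter windows of 300 bases (GRCm38.p6, 250 bases before and 50 after the start). Of 32851 windows 744 (2.26%) held at least 1 match and 32 (0.0974%) held 2 or more. Mcm3 and Mcm5 each held 2 matches, Hells held 1, and Rfc4, Rpa2 and H2ac8 held none of these letters. Mcm4 was not analysed here. The window of Mcm3 is chr1:20820263-20820562 on the minus strand and that of Mcm5 is chr8:75109259-75109558 on the plus strand. Capitals mark the matches, which in Mcm5 overlap each other.
Mcm3: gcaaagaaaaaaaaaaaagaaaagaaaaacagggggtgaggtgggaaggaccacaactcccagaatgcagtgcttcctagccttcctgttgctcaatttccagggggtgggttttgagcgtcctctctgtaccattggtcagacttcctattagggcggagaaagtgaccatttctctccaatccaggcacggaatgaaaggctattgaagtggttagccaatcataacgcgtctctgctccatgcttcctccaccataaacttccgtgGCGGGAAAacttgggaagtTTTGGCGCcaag
Mcm5: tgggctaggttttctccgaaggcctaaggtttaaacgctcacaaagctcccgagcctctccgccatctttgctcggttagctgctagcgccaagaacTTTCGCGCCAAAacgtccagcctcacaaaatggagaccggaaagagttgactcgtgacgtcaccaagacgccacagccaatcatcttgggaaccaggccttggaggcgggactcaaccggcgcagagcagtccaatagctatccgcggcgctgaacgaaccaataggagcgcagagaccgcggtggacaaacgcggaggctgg

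**Figure D3:**
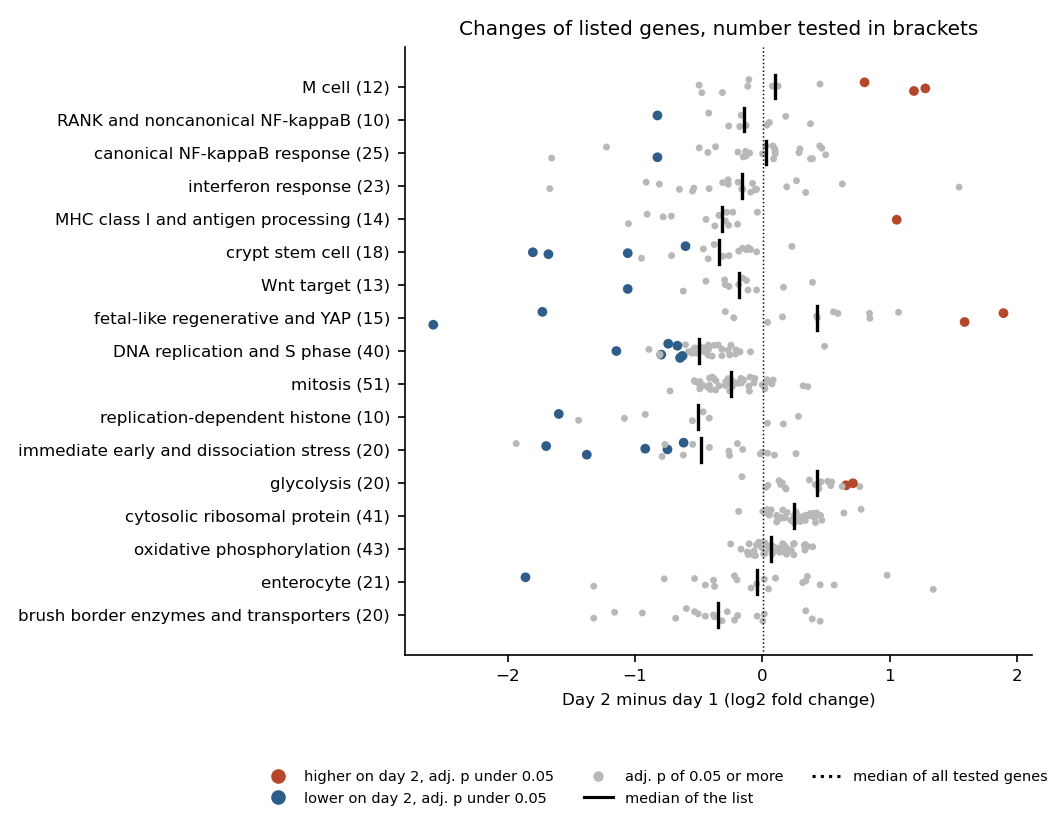
Log2 fold changes, day 2 minus day 1, of the tested genes of 17 lists, each point a gene. Black bars are list medians and the dotted line is the median of all tested genes. The S phase list has its median at -0.50 with 6 falls, the crypt stem cell list at -0.34 with 4, and glycolysis at 0.43 with 2 rises.

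Several immediate early genes fell. Fos, an AP-1 subunit, had 188, 140 and 172 CPM on day 2 against 409, 427 and 459 CPM on day 1 (-1.38 ± 0.23, edgeR adjusted p = 0.000276). Egr1, a zinc finger factor induced by growth factors, had 148, 166 and 188 CPM on day 2 against 269, 312 and 372 CPM on day 1 (-0.92 ± 0.17, adjusted p = 0.00217). Neither overlapped between the days. Over all tested genes, 0.59% fell and 9.45% lay wholly lower. Of 20 tested genes of the immediate early list 5 fell and none rose, with a median of -0.48 and 10 wholly lower. Atf3 was the third (-1.70, adjusted p = 0.00528). Jun (-0.74, 0.0153) lost its call without plate 2 (0.097) or 3 (0.0755) of day 2 or plate 1 of day 1 (0.123), and Klf6 (-0.62, 0.0337) lost it without any 1 of the 6 plates (0.0672 to 0.171). The list also marks the stress of dissociating cells, and the part of cell handling in these values was not tested. Of 15 tested fetal-like and YAP target genes 2 rose and 2 fell, against 0.9% and 0.59% of all tested genes. Edn1, the vasoactive peptide endothelin 1, had 8.03, 9.09 and 11.9 CPM on day 2 against 75.5, 46.3 and 54.1 CPM on day 1 (-2.58 ± 0.26, edgeR adjusted p = 2.54e-08). Ccn1, a matricellular protein, had 13.4, 11.04 and 10.5 CPM on day 2 against 40.9, 34.1 and 39.9 CPM on day 1 (-1.73 ± 0.27, adjusted p = 0.000113). Plates overlapped for neither. Clu, a secreted chaperone, had 42.8, 76.0 and 42.6 CPM on day 2 against 16.7, 16.7 and 20.7 CPM on day 1 (1.59 ± 0.31, adjusted p = 0.00233), a call lost without plate 2 of day 2 (0.0685). Msln, mesothelin, had a log2 fold change of 1.89 (adjusted p = 0.0151), a call lost without plate 2 of day 2 (0.169), plate 1 of day 1 (0.0721) or plate 3 of day 1 (0.0805). Pthlh, the parathyroid hormone-related peptide, was 42.8, 35.7 and 35.6 CPM on day 2 against 91.0, 115 and 74.1 CPM on day 1 (-1.30 ± 0.20, adjusted p = 0.00013).

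Metallothioneins, small proteins that bind zinc and copper, fell as well. Mt2 had 129, 177 and 128 CPM on day 2 against 668, 356 and 472 CPM on day 1, with every day 2 plate at or under 177 CPM (-1.78 ± 0.21, edgeR adjusted p = 5.92e-07). Mt1, chosen after its values were seen, had 246, 284 and 249 CPM on day 2 against 706, 316 and 426 CPM on day 1 (-0.89 ± 0.23, adjusted p = 0.0315). Its call was lost without any 1 of the day 2 plates (0.0832 to 0.127), without plate 1 of day 1 (0.271) or without TMM scaling (0.063). Both are induced through metal response elements, whose cores TGCACNC and TGCGCNC were searched on both strands. Of the 32851 windows 8444 (25.7%) held at least 1 match, 2337 (7.11%) held 2 or more and 647 (1.97%) held 3 or more. Mt2 (chr8:94172368-94172667, plus strand) held 4 and Mt1 (chr8:94178839-94179138, plus strand) held 3, shown in capitals.
Mt2: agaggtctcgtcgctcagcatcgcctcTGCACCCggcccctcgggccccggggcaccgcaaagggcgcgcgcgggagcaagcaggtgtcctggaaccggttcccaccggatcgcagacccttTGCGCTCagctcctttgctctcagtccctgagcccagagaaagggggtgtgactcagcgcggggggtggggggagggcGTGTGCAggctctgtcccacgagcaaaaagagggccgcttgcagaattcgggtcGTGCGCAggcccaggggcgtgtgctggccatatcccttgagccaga
Mt1: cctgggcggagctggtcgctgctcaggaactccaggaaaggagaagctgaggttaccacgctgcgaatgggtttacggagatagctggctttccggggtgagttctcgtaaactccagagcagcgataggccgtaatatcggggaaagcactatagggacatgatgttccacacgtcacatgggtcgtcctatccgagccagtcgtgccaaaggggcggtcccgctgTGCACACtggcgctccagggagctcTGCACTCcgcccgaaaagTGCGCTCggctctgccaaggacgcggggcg

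Among metabolic genes Cps1, Fabp1 and Cyp2b10 fell. Cps1 (chromosome 1, 67123026 to 67231259), the mitochondrial enzyme that makes carbamoyl phosphate from ammonia, had 75.0, 65.6 and 67.8 CPM on day 2 against 262, 322 and 327 CPM on day 1. Its day 2 plates lay close to each other and all under day 1 (-2.13 ± 0.16, edgeR adjusted p = 2.45e-11). Fabp1, the fatty acid-binding protein of proximal enterocytes, had 54.4, 40.3 and 39.1 CPM on day 2 against 212, 138 and 130 CPM on day 1 (-1.86 ± 0.42, adjusted p = 0.013). Its call was lost without plate 2 (0.0888) or 3 (0.0849) of day 2 or plate 1 of day 1 (0.0686), and with DESeq2 (0.308). Cyp2b10, a xenobiotic-metabolising cytochrome P450 with close copies, had 32.1, 47.4 and 48.9 CPM on day 2 against 210, 108 and 98.3 CPM on day 1 (-1.69 ± 0.38, adjusted p = 0.012). It lost its call without plate 1 (0.0661) or 2 (0.0562) of day 2 or plate 1 of day 1 (0.112), and with DESeq2 (0.407). Fabp1 was the only call among 21 tested enterocyte genes (median -0.04) and among 21 lipid absorption genes (median 0.05). None of 20 tested brush border genes passed (median -0.35), and Alpi, the intestinal alkaline phosphatase, had 419, 358 and 315 CPM on day 2 against 335, 219 and 304 CPM on day 1 (0.34 ± 0.31, adjusted p = 0.72). Of 20 tested glycolysis and hypoxia genes 2 rose, with a median of 0.43 and 10 wholly higher against none wholly lower. Over all tested genes, 0.9% rose and 0.59% fell, and 9.54% lay wholly higher and 9.45% wholly lower. Aldoa, an aldolase, had 609, 927 and 726 CPM on day 2 against 508, 409 and 464 CPM on day 1 (0.71 ± 0.18, edgeR adjusted p = 0.0321), and Vegfa, an angiogenic factor, had 108, 90.9 and 97.8 CPM on day 2 against 55.7, 59.2 and 72.6 CPM on day 1 (0.66 ± 0.16, 0.0221). Aldoa lost its call without plate 2 (0.244) or 3 (0.0734) of day 2 or plate 2 (0.187) or 3 (0.101) of day 1, or without TMM scaling (0.14), and Vegfa without plate 1 (0.104) or 3 (0.0738) of day 2 or plate 1 (0.0928) or 2 (0.118) of day 1. None of 43 oxidative phosphorylation genes (median 0.07), 41 ribosomal protein genes (median 0.25) or 29 cholesterol and fatty acid synthesis genes (median 0.12) passed.

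The remaining lists held 0 to 2 calls each, where 0.9% of all tested genes rose and 0.59% fell. Of 31 tested genes of NRF2 and xenobiotic response, Cyp2b10 fell and Adh1 rose (median -0.34). Adh1, an alcohol and retinol dehydrogenase, had 783, 682 and 756 CPM on day 2 against 565, 351 and 324 CPM on day 1 (0.84 ± 0.20, edgeR adjusted p = 0.0227). Its plates did not overlap, and the call was lost without plate 1 (0.078) or 3 (0.0769) of day 2 or plate 2 (0.163) or 3 (0.184) of day 1, or without TMM scaling (0.0707). Id3, an inhibitor of basic helix-loop-helix factors, was 1 rise among 9 tested Id and BMP genes, with 274, 299.95 and 332 CPM on day 2 against 189, 165 and 182 CPM on day 1 (0.76 ± 0.20, adjusted p = 0.0371). Although its plates did not overlap, leaving out any 1 of the 6 ended the call (0.0546 to 0.2), as did leaving out TMM scaling (0.0969). Isx, an intestinal homeobox factor, was the only rise among 28 intestinal transcription factors (0.66, adjusted p = 0.0469), and its call too was lost without any 1 plate (0.0578 to 0.223) or without TMM scaling (0.1). Cdkn2b, an inhibitor of CDK4 and CDK6, was the only rise among 20 cyclins and CDK inhibitors (0.59, adjusted p = 0.0371), and it lost its call without any plate but plate 1 of day 1 (0.0646 to 0.2) and without TMM scaling (0.0934). Of 24 tested genes of unfolded protein and integrated stress responses, Atf3 and the serine synthesis gene Psat1 fell (median -0.26), and Psat1 (-0.56, adjusted p = 0.0175) lost its call without plate 2 (0.108) or 3 (0.124) of day 2 or plate 2 (0.0997) or 3 (0.0714) of day 1. None of 10 Notch pathway genes, 11 EGF ligands and receptors or 22 keratin and junction genes passed.

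No listed gene of goblet, Paneth or tuft cells passed the test, and 1 listed enteroendocrine gene did. The lists held 11 tested goblet, 11 Paneth and 10 tuft cell genes. Muc2, the goblet cell mucin, had 30.3, 2.60 and 18.9 CPM on day 2 against 8.05, 150 and 4.27 CPM on day 1 (-1.68 ± 0.89, edgeR adjusted p = 0.456), and 98 of its 198 UMIs on plate 2 of day 1 lay in 1 cell. Without that plate its log2 fold change was 1.38. Lyz1, the Paneth cell lysozyme, had 53.5, 52.6 and 309 CPM on day 2 against 162, 125 and 244 CPM on day 1 (-0.34 ± 0.88, adjusted p = 0.93), with 339 of its 443 UMIs on plate 3 of day 2 in 1 cell. Of 11 tested enteroendocrine genes 1 rose, against 0.9% of all tested genes. It was Ghrl, the hormone ghrelin, with 0, 169 and 57 UMIs on the day 2 plates and none on day 1. A single cell held 163 of the 169 UMIs and another 51 of the 57. The call was lost without plate 2 of day 2 (0.0599) and with DESeq2 (0.3), and plate 1 of day 2 was at the day 1 level. Calcb, the neuropeptide CGRP beta, was chosen after its values were seen and was spread over many cells. Chga, the granin of enteroendocrine cells, had 4, 27 and 4 UMIs on day 2 against 0, 0 and 1 UMI on day 1 and was not tested. Calcb was counted in 31, 33 and 21 cells on the day 2 plates against 4, 7 and 12 cells on the day 1 plates, at 45.5, 40.9 and 30.04 CPM against 2.48, 9.11 and 11.4 CPM (2.35 ± 0.42, edgeR adjusted p = 0.00134).

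The days around the step place these values. Anxa5 averaged 27.4 ± 7.36 CPM (SD, n = 3 plates a day throughout) on day 0, 473 ± 40.0 CPM at day 1, 1149 ± 62.7 CPM at day 2 and 812 ± 102 CPM at day 3. Spib was at 0 on all day 0 plates and averaged 257 ± 64.1 CPM on day 1, 182 ± 38.2 CPM on day 2 and 162 ± 35.7 CPM on day 3. Olfm4 averaged 906 ± 205 CPM on day 0, 3127 ± 345 on day 1, 898 ± 281 on day 2 and 1031 ± 87.2 on day 3, with the highest level of these days on day 1. Lgr5 averaged 189 ± 4.01 CPM on day 0, 79.5 ± 9.31 on day 1, 38.4 ± 6.86 on day 2 and 32.0 ± 5.54 on day 3. Edn1 had a peak like that of Olfm4, with 9.59 ± 4.08 CPM on day 0, 58.6 ± 15.1 on day 1, 9.67 ± 1.98 on day 2 and 11.02 ± 2.01 on day 3. Mt2 averaged 2344 ± 250 CPM on day 0, 499 ± 158 on day 1, 145 ± 27.7 on day 2 and 616 ± 42.2 on day 3, with its lowest level on day 2. These steps share plates and are given side by side.

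**Figure D4:**
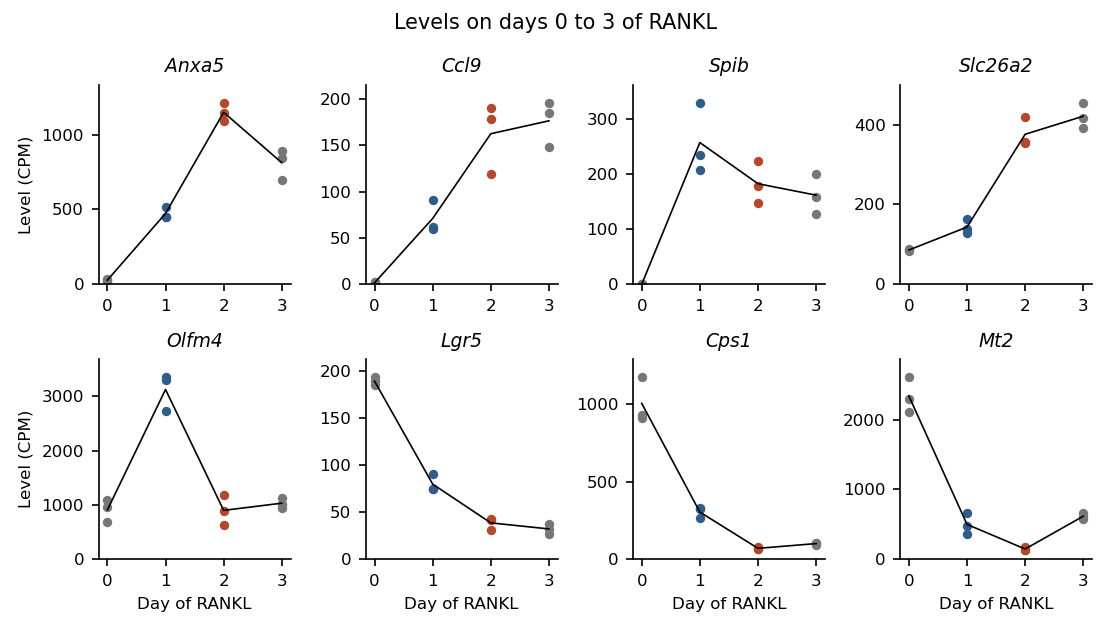
Levels in CPM of 8 genes on days 0, 1, 2 and 3 of RANKL, with points for plates and a line through the means. Day 1 and day 2 plates are coloured. Anxa5 is highest on day 2, Olfm4 on day 1, and Lgr5 and Cps1 are highest on day 0.

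Shares of cells were compared after each cell had been thinned to 2000 UMIs, so that depth was equal. With 3 plates against 3, an exact permutation test cannot give a two-sided p under 0.1, and over the 10 genes counted the lowest Benjamini-Hochberg adjusted value was 0.143. Anxa5 was counted in 71.9% ± 4.96 of cells on day 2 and 48.4% ± 4.25 on day 1 (SD, n = 3 plates each; exact permutation p = 0.1), with 70.0%, 77.6% and 68.3% on the day 2 plates against 45.3%, 46.7% and 53.2% on the day 1 plates. Spib was counted in 20.7% ± 1.01 of cells on day 2 and 28.1% ± 3.51 on day 1 (exact p = 0.1), and in none of the day 0 cells. Without thinning, the shares with Spib were 36.7% ± 3.17 on day 2 and 44.3% ± 5.18 on day 1 (exact p = 0.2). Olfm4 was counted in 45.6% ± 4.60 of cells on day 2 and 78.0% ± 5.73 on day 1 (exact p = 0.1). Mki67 was counted in 24.9% ± 4.05 of cells on day 2 and 36.9% ± 3.95 on day 1, Top2a in 42.1% ± 4.13 and 54.4% ± 3.21, and Rrm2 in 19.8% ± 2.79 and 29.4% ± 1.11 (exact p = 0.1 for each). All 3 proliferation genes were in fewer cells on every day 2 plate than on any day 1 plate. Thinned to 1000 UMIs, the days overlapped for Rrm2 (exact permutation p = 0.2). Fabp1 was counted in 4.07% ± 1.02 of cells on day 2 and 8.78% ± 2.76 on day 1 (exact p = 0.1). Serpinb1a (69.0% on day 2, 72.3% on day 1, exact p = 0.2), Ccl20 (65.2% and 61.5%, exact p = 0.3) and Apoa4 (8.44% and 9.36%, exact p = 0.7) overlapped between days.

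The step was also tested separately in cells with and without a Spib UMI. Spib was counted in 76, 92 and 88 cells of the day 2 plates and in 120, 92 and 115 cells of the day 1 plates. The other cells include any in which Spib was missed. Cells with Spib were deeper, with plate medians of 6080.5 to 7153 UMIs on day 2 and 5969.5 to 6625.5 on day 1, against 5165 to 5870 on day 2 and 5074.5 to 6312.5 on day 1 in the other cells. Among cells with Spib 185 of 7354 tested genes passed (2.52%), and among cells without it 58 of 8326 (0.697%). With each cell thinned to 2000 UMIs the order was the other way, with 34 of 2677 tested genes in cells with Spib and 68 of 6287 in cells without it, so no order of the classes is read from these counts. Of the 134 genes called over all cells and tested in both classes, all 134 had the same sign in both, 97 passed in cells with Spib, 50 in cells without it and 42 in both. These cells were part of the first comparison, so the overlap is no independent support, and whether any change differed between the classes was not tested. Anxa5 had 1597, 1751 and 1698 CPM on day 2 against 607, 683 and 678 CPM on day 1 in cells with Spib (1.36 ± 0.14, edgeR adjusted p = 3.84e-07). In cells without Spib it had 773, 762 and 757 CPM on day 2 against 273, 273 and 328 CPM on day 1 (1.39 ± 0.14, adjusted p = 5.35e-06). The call was made in both classes. Olfm4 fell by 2.02 on the log2 scale in cells with Spib and by 1.68 in cells without it (edgeR adjusted p = 3.18e-07 and 9.48e-06). Lgr5 fell by 1.55 in cells with Spib (adjusted p = 0.00236) and had a log2 fold change of -0.89 in cells without it, which did not pass (0.0665). Egr1 fell in both, by 1.48 in cells with Spib (1.86e-05) and by 0.63 in cells without it (0.0422). The call of Egr1 in cells without Spib was lost with thinning (0.0653) and without any plate but plate 1 of day 1 (0.0567 to 0.175). Clu rose in cells without Spib, at 46.1, 110 and 41.6 CPM on day 2 against 13.5, 21.5 and 17.2 CPM on day 1 (1.93 ± 0.37, adjusted p = 0.0109), and had a log2 fold change of 1.00 in cells with Spib (0.157). The call of Clu was lost with thinning (0.413), without plate 1 (0.059) or 3 (0.0684) of day 1 and without plate 2 of day 2 (0.102). A Mki67 or Top2a UMI was found in 37.8% ± 9.22 of thinned cells with Spib on day 2 and 51.7% ± 10.5 on day 1 (SD, n = 3 plates each; exact permutation p = 0.3), and in 53.1% ± 7.16 of the other cells on day 2 and 66.6% ± 1.29 on day 1 (exact p = 0.1).

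The same step was taken by a parallel arm that received RANKL with 40 µM CSRM617, an inhibitor of ONECUT2, with 2 plates of 178 and 197 cells on day 2 and 2 plates of 223 and 192 cells on day 1. Its plates were shallower than the RANKL plates, with medians of 2206.5 and 3685 UMIs per cell on day 2 and 3493 and 2506.5 on day 1. CT010467.1 took 16.4% and 6.70% of UMIs on these day 2 plates and 6.87% and 19.7% on these day 1 plates. That arm came in a table of its own, so arm and table cannot be told apart. Over the 8849 genes tested in both arms, 716 passed between its day 2 and day 1 (8.09%), against 120 in the RANKL arm in the same fit. Without plate 2 of its day 2 that count was 255, and without plate 1 or plate 2 of its day 1 it was 333 or 429. Of 139 RANKL calls tested there, 89 passed in the same direction, which is 64.0% of the RANKL calls and 12.4% of the 716. Of 83 RANKL rises 81 had a log2 fold change above 0 in the RANKL+CSRM617 arm (median 1.55), and of 56 falls 49 had one below 0 (median -1.19). The change itself differed between arms for 91 of 8849 genes (1.03%, with 1006 at an unadjusted p under 0.05), and the number was 35 without plate 2 of day 2 and 31 or 55 without plate 1 or 2 of day 1 of the RANKL+CSRM617 arm. Spib had 317 and 486 CPM on day 2 against 93.2 and 68.4 CPM on day 1 with RANKL+CSRM617 (2.30 ± 0.34, edgeR adjusted p = 6.18e-06), and its change exceeded that of the RANKL arm by 2.80 ± 0.41 on the log2 scale (adjusted p = 4.87e-05). Anxa5 had 1820 and 1457 CPM on day 2 against 117 and 102 CPM on day 1 with RANKL+CSRM617 (3.89 ± 0.23, adjusted p = 9.69e-17). Of all 8849 genes, 402 rose and 314 fell in the RANKL+CSRM617 arm. Of the M cell list 7 of 13 tested genes rose in that arm (median 2.30). Of the crypt stem cell list 12 of 18 fell (median -1.30), and of the S phase and mitosis lists 25 of 36 and 26 of 50 fell. Olfm4 fell by 2.83 and Cps1 by 2.55 with RANKL+CSRM617 (adjusted p = 1.27e-09 and 2.37e-13), and for neither did the difference between arms pass (adjusted p = 0.17 and 0.549). Mt2 moved in opposite directions, with 1387 and 1321 CPM on day 2 against 642 and 488 CPM on day 1 of RANKL+CSRM617 (1.25 ± 0.28, edgeR adjusted p = 0.00193), a call lost without plate 2 of that day 1 (0.0604).

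**Figure D5:**
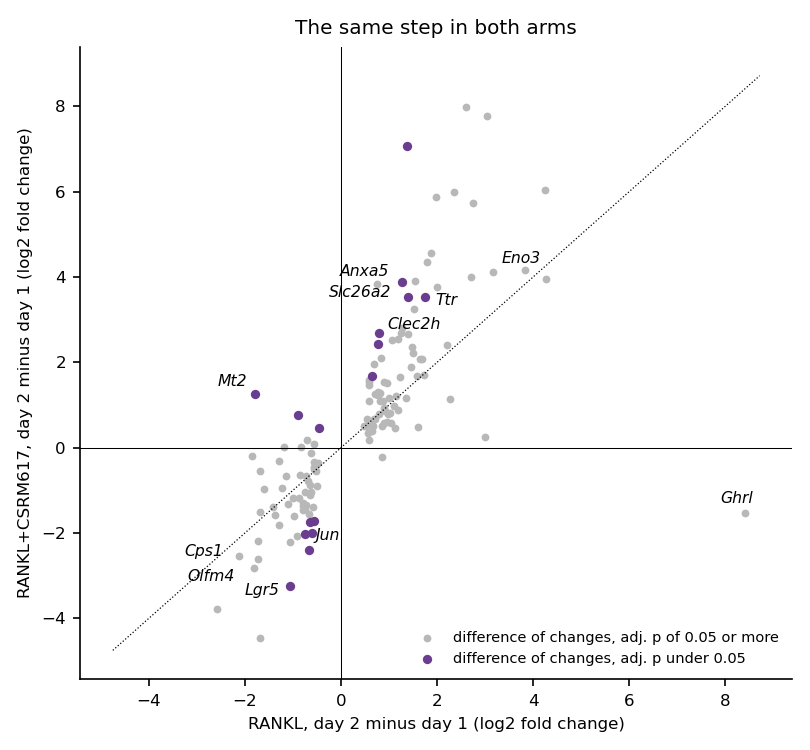
Log2 fold change, day 2 minus day 1, in the RANKL+CSRM617 arm (vertical) against that in the RANKL arm (horizontal) for the 139 RANKL calls tested in both. The dotted line marks equal changes. The 16 genes in purple differ between arms, with Anxa5 and Slc26a2 above the line, Lgr5 under it and Mt2 in the upper left.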

How the data were processed

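The authors deposited UMI counts per gene and well, in 1 table per arm. Per the submitters' processing notes, kallisto, bustools, Seurat 3.1.5 and GRCm38 were used; the sources used here give neither parameters nor versions of kallisto and bustools. From the deposited counts, wells under 1000 UMIs were dropped and the rest summed per plate. Doublets were not called, and no kept cell of the 6 plates exceeded 3 times its plate's median. All 30 RANKL plates entered 1 fit with edgeR 4.0.16 (R 4.3.3), with filterByExpr, TMM scaling, the quasi-likelihood test and Benjamini-Hochberg adjustment at 0.05; the arms were compared in a joint fit with an interaction term, and DESeq2 1.42.0 was an alternative. The separate fits for cells with and without Spib used only the RANKL plates of days 1 to 3 and left Spib itself out. CPM are scaled by TMM. The scripts were tested on simulated data. Shares of cells were tested with a two-sided exact permutation test over plates (scipy 1.17.1).

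Genes were named if among the 10 largest rises or falls whose plates did not overlap and whose mean log2 CPM was at least 5. Also named were up to 4 called members per list and a short list of interest. Between arms, the 5 largest called differences each way were named among genes with a mean log2 CPM of at least 5 over the 10 plates. Rac2 and Serpinb1a met only this last rule and were also chosen after values were seen. Ctsh, Smoc2, Ascl2, Axin2, Mcm4, Hells, Klf6, Mt1, Eno3, Calcb, Top2a, Rrm2 and Apoa4 lie outside these rules and were chosen after values were seen. So were Haus4, Ncapg2, Stil, Fbxo5 and Hepacam2. The members and lists were chosen with earlier results of these data known. Names matched GENCODE M21, and promoters are from RefSeq.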

Additional observations from a re-analysis of the deposited data

Results flagged for a closer look

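For 18 of the named genes that were looked up, the change between day 2 and day 1 differed between the arms. This was tested as an interaction in edgeR's joint fit with Benjamini-Hochberg adjustment. Haus4, Ncapg2, Stil, Fbxo5, Hepacam2, Top2a, Rrm2 and Apoa4 were not looked up. Values are the log2 change with RANKL+CSRM617 minus that with RANKL. The difference was positive for Rac2 (3.96, adjusted p = 0.000757), Mt2 (3.04, 5.63e-07), Spib (2.80, 4.87e-05), Anxa5 (2.61, 2.12e-08), Serpinb1a (2.44, 2.31e-06), Slc26a2 (2.14, 3.63e-05), Clec2h (1.88, 0.000757), Ttr (1.79, 0.00164), Mt1 (1.67, 0.0408) and Vegfa (1.02, 0.043). It was negative for Lgr5 (-2.20, adjusted p = 0.000135), Npnt (-1.97, 0.0168), Pdgfa (-1.77, 0.000687), Slc16a12 (-1.73, 0.00329), Tgif1 (-1.70, 0.013), Aqp4 (-1.39, 0.013), Smoc2 (-1.37, 0.00133) and Jun (-1.27, 0.0449). Of these, 10 were named for having the largest called differences among genes with a mean log2 CPM of at least 5. They were Rac2, Mt2, Spib, Anxa5, Serpinb1a, Lgr5, Npnt, Pdgfa, Slc16a12 and Tgif1, so 18 is no measure of how often arms differed.

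Several of these differences were lost in another setting. Without plate 2 of day 2 of RANKL+CSRM617 the call ended for Npnt (0.284), Pdgfa (0.0659), Slc16a12 (0.166), Tgif1 (0.285), Aqp4 (0.171) and Smoc2 (0.0592). Without plate 1 of its day 1 it ended for Npnt (0.163), Tgif1 (0.153) and Aqp4 (0.274). Thinning to 1000 UMIs ended it for Npnt (0.534), Pdgfa (0.475), Slc16a12 (0.515), Aqp4 (0.512) and Smoc2 (0.174). Jun, Mt1 and Vegfa lost theirs without most single plates and with a replicate block (0.0531, 0.0613 and 0.0581). The call held in every setting run for Rac2, Mt2, Spib, Anxa5, Serpinb1a, Slc26a2, Clec2h, Ttr and Lgr5. The arms came in separate tables with 2 and 3 plates a day, so arm and table cannot be told apart.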

How the results depend on the processing

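The RANKL count of 149 genes was 262 with no filter on low counts and 39 with cells thinned to 1000 UMIs, and 66 to 150 with 1 plate left out. It stayed within 1.5 times under the other settings, with 153 by DESeq2 (129 shared), 113 without TMM (53.1% of them rises, against 60.4%), 201 with the 6 plates alone and 143 without CT010467.1. Same-numbered plates did not deviate together from their day means (r of -0.226, -0.0634 and -0.118 over 5441 genes). With 3 plates a day this cannot decide whether the numbers pair plates. With a replicate block the count was 144 (138 shared), with 649 for RANKL+CSRM617 and 74 for the difference between arms. Thinning gave 211 for RANKL+CSRM617 and 43 for the difference, and leaving out 1 plate gave 255 to 713 and 31 to 87. Among cells with Spib, thinning to 2000 UMIs gave 34, and leaving out 1 plate gave 95 to 198. Among the other cells thinning gave 68, and leaving out 1 plate gave 33 to 59. Without plate 2 or 3 of day 1 the count in cells with Spib was 108 or 118, and without plate 2 or 3 of day 2 it was 96 or 95. Thinning to 1000 UMIs, which leaves fewer counts, also ended the calls of Lgr5, Egr1, Atf3, Edn1, Ccn1, Ccl9, Mfge8 and Rgcc, among others. Leaving out TMM ended the calls of Adh1, Aldoa, Birc3, Cdkn2b, Clec2h, Id3, Isx and Mt1. Over the named genes and settings, 1481 values kept their direction and side of the threshold, 220 lost the call, 12 gained one and 8 changed sign, all in genes that were not called. With 1 plate left out the log2 fold change was -2.32 to 1.38 for Muc2, -1.74 to 0.066 for Lyz1 and -0.28 to 0.084 for Axin2. Thinned to 1000 UMIs it was 0.0030 for Ascl2 and 0.031 for Axin2.

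Shares of cells, in percentage points of day 2 minus day 1, moved without thinning to 17.6 for Anxa5, -0.334 for Serpinb1a, -12.9 for Rrm2, -25.8 for Olfm4 and -7.20 for Fabp1. Thinned to 1000 UMIs they moved to -0.511 for Serpinb1a, -7.67 for Mki67 and -4.30 for Rrm2. Apoa4 reversed to 0.523 without plate 1 of day 1, 0.244 at 1000 UMIs and 2.28 without thinning, and leaving out 1 plate gave -2.35 to 0.523. The cause was not tested.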
